A study of Mus musculus with 3 samples.

Results

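Basophils of BMP2 implants were taken as the cells that carried UMIs (single counted RNA molecules) of a set of basophil genes but none of the macrophage gene C1qa. Cells with 200 to 6000 genes and at most 5% mitochondrial UMIs were searched for 6 markers, Mcpt8, Gata2, Cyp11a1, Ms4a2, Cd200r3 and Fcer1a, and a cell was kept when at least 2 were detected with Mcpt8 or Ms4a2 among them. In the Vehicle library 88 of 5478 cells met this rule, a share of 1.61% (exact binomial 95% interval 1.29 to 1.98%). The same rule found 1 of 8728 cells in the Matrigel-only library and 0 of 7297 in the Palo library, where 0 cells allow a share of up to 0.0411% when 3 counts are taken as the floor, or 0.0505% by the exact binomial interval.

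Female CD-1 mice of 6 to 8 weeks received implants under the skin, and the ectopic tissue masses were collected on day 5, digested with dispase and sequenced as 1 droplet library per group. The Matrigel-only mice carried Matrigel, a basement membrane gel, without growth factor and were given nothing by mouth. The Vehicle mice carried Matrigel with rhBMP2, a recombinant protein that starts ectopic cartilage and bone formation, and received corn oil and DMSO by daily gavage. The Palo mice carried the same rhBMP2 implant and received 4 mg/kg of palovarotene, an agonist of a retinoic acid receptor, by daily gavage. Since each group gave 1 library, intervals here cover counting error only, no test between groups was possible, and a condition cannot be told apart from its library. Cells that passed the limits held 42335347 UMIs (Matrigel-only), 40180209 UMIs (Vehicle) and 44682600 UMIs (Palo).

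Basophils are rare granulocytes of the blood that enter tissue during type 2 inflammation and carry the high affinity IgE receptor. When activated they release histamine, leukotrienes and cytokines, among them interleukin 4. The factor GATA2 is needed for their formation, and they share much of their gene program with mast cells, which reside in tissue and store other proteases and heparin. Inflammatory cells gather around a BMP2 scaffold before progenitors invade it and cartilage forms.

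The sequences of the promoters are shown for 3 of the 6 marker genes, since Gata2 RNA was among the values that chose the cells and GATA factors bind short motifs of known letters. Cd200r3 and Ms4a2 were picked after the search as the marker genes with most matches, and Mcpt8 as the leading marker of the rule. The letters searched on both strands were AGATAA plus the variant AGATAG, then TGATAA plus the variant TGATAG, and they stand in capitals in the 120 bases before each RefSeq start (GRCm38.p6, the same sequence as mm10), written 5′ to 3′ on the strand of the gene. Cd200r3, a paired receptor of the CD200 receptor family, lies on the plus strand with these bases at chr16:44943558-44943677. Ms4a2, the beta chain of the IgE receptor, and Mcpt8, a basophil serine protease, lie on the minus strand at chr19:11623720-11623839 and chr14:56085198-56085317.
Cd200r3: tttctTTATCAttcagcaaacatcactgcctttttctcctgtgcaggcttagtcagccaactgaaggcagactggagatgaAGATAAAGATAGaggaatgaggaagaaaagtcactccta
Ms4a2: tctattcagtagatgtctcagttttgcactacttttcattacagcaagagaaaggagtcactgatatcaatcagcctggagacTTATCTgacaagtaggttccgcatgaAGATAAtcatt
Mcpt8: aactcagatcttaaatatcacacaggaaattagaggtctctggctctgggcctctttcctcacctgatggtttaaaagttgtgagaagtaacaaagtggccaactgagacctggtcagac

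The Cd200r3 stretch held 3 matches, which began 115, 39 and 33 bases before the start, with the last 2 side by side. The Ms4a2 stretch held 2, which began 37 and 11 bases before the start, and the Mcpt8 stretch held 0. Among 32817 RefSeq windows of the same 120 bases, 12.8% held at least 1 match, 1.53% at least 2 and 0.155% at least 3. Of the markers not shown, Fcer1a had 1 match in these bases and Gata2 and Cyp11a1 had 0, so the shares describe all windows and are no measure of the stretches picked. In the longer windows of 300 bases (250 before to 50 after the start), 4 of the 8 windows of the marker genes held a match, where 29.8% of all windows did. A match is a description of letters and not a binding site.

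The 88 cells were small libraries. Their median was 1372.5 UMIs and 844 genes, against 3903 UMIs and 1722 genes in the 3029 other Vehicle leukocytes, which were all other passing cells with at least 1 UMI of the leukocyte gene Ptprc. Only 47 of the 88 had a Ptprc UMI themselves. All 6 markers were detected in 8 cells, 5 markers in 34, 4 in 29, 3 in 15 and 2 in 2 cells. Mcpt8 was seen in 82 of the 88, Gata2 in 86, Cyp11a1 in 82, Ms4a2 in 59, Cd200r3 in 55 and Fcer1a in 19. These genes chose the cells, so their values describe the choice.

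The 2 cells just inside the rule, with 2 markers, had 608 and 616 UMIs, and both carried Hdc, the enzyme that makes histamine. The 12 Vehicle cells just outside, with 1 marker, had 1 UMI of it each, 0 UMIs of Hdc and a median of 16036 UMIs. A further 9 Vehicle cells met the marker rule but held 1 to 28 UMIs of C1qa, and they carried 11.3% of the Mcpt8 UMIs of the library.

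Of the 88 cells, 5 stood apart with more than 5000 UMIs, and they held other cell types' RNA beside the basophil genes. The deepest, with 27936 UMIs, carried 650 UMIs of the cartilage collagen Col2a1, and the next, with 14118 UMIs, carried 351 of Col1a1 and 0 of Col2a1. A cell of 7149 UMIs carried 534 UMIs of mast cell proteases. A cell of 9484 UMIs carried 28 UMIs of Cpa3 (a mast cell and basophil carboxypeptidase), 72 of Gzmb and 8 of Kit, with 97 of Mcpt8 and 0 of Hdc. The cell of 5513 UMIs carried 17 UMIs of Siglech, a plasmacytoid dendritic cell gene. The next cell had 3920 UMIs. The 88 cells held 180134 UMIs and the 83 cells of up to 5000 UMIs held 115934. Levels are given for the 88 cells and, for some genes, also for the 83. A level given without a cell set is that of the 88 cells, and the level in the 83 can be higher or lower. Whether the 5 were doublets was not tested. Among the 83 cells, 1 carried T cell transcripts (8 UMIs of Cd3g) and 1 carried 14 UMIs of the B cell gene Igkc.

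**Figure D1:**
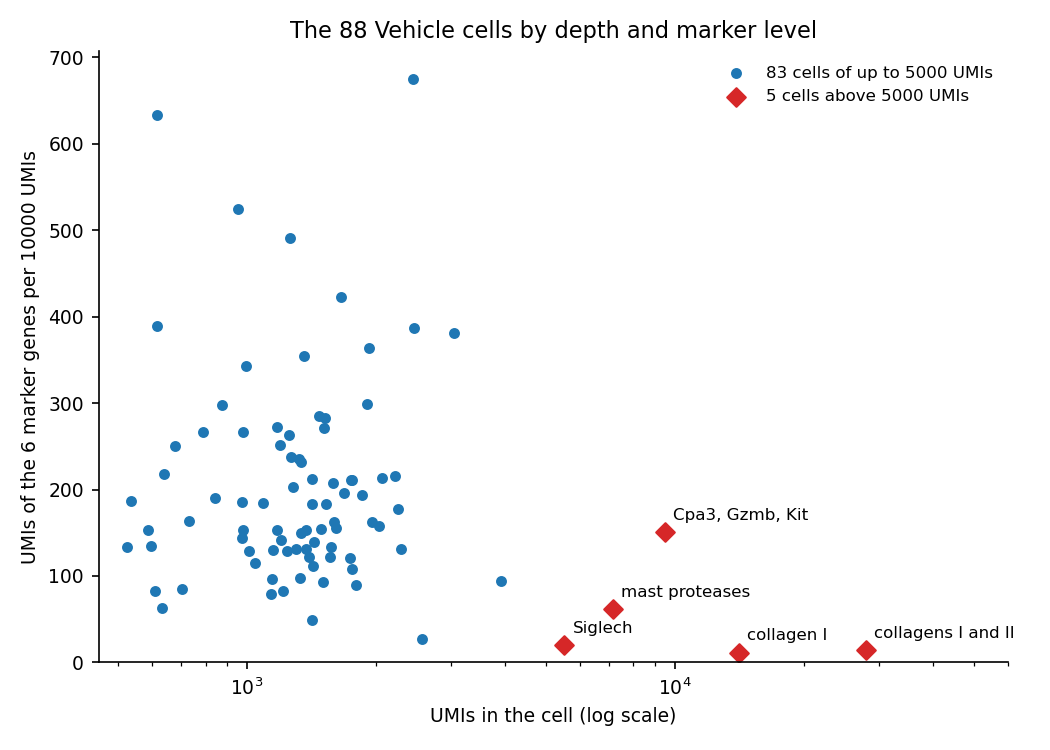
Each point is 1 of the 88 selected Vehicle cells, with its UMIs on a log axis and the UMIs of the 6 marker genes per 10000 UMIs of the cell on the vertical axis. The 83 cells of up to 5000 UMIs lie at 3920 UMIs or less, and the 5 deeper cells are labelled with the other RNA they carried.

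Genes known from basophils but not used to choose the cells were high in them as well. Of 16 such genes, 15 passed the filter of 20 CPM (UMIs per 1000000 UMIs) in either group, and 14 of these were at least 4-fold above the other Vehicle leukocytes on the scale of CPM with 5 added, all 15 in the 83 cells. Over all 7663 genes that passed, 5.77% were at least 4-fold higher and 7.27% at least 4-fold lower, and for the 83 cells 6.98% and 15.1% of 7393. The list had a median log2 ratio of 4.51 (4.78 in the 83 cells) where all tested genes had 0.06 (-0.16). From plain CPM ratios, with nothing added and 3 counts in place of any 0, the list's median was 7.04 (7.57). Prss34, a basophil tryptase, did not pass the filter, with 2 UMIs in 2 cells. The filter passes a gene that is high in only 1 of the groups, so these counts describe the cells and are no support for their name.

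Hdc, which converts histidine to histamine, was detected in 85 of the 88 cells. Its level per cell ran from 0 over a median of 44.3 to 152 UMIs per 10000. The summed level was 3231 CPM (exact Poisson 95% interval 2974 to 3504) in the 88 cells and 4804 in the 83, against 13.1 in the other leukocytes, and the selected cells held 67.8% of all Hdc UMIs of the library. The neutrophil gate, 68 Vehicle leukocytes with at least 2 neutrophil genes, was at 482 CPM of Hdc, and the 9 C1qa-positive cells that met the marker rule held 70 Hdc UMIs, with at least 1 in each. Slc18a2, the transporter that loads histamine into granules, was lower in counts, with 18 UMIs in 13 cells at 99.9 CPM.

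Ifitm1, a membrane protein induced by interferon, was found in all 88 cells. It ran from 4.96 over 123 to 358 UMIs per 10000, and its level was 9804 CPM against 52.2 in the other leukocytes. Grm6, a metabotropic glutamate receptor used as a basophil marker, had 522 CPM in the 88 cells and 0.520 in the others, and 87.9% of its UMIs lay in the selected cells. Of the 8 Grm6 UMIs in the other leukocytes, only 1 lay outside the C1qa-positive cells that met the marker rule, so the level in the others rests on those few cells. Csrp3, a muscle LIM protein, had 289 and 0.195 CPM, and Rab44, a large Rab GTPase of granulocytes, 694 and 5.27 CPM. Cdh1, the adhesion protein E-cadherin, had 1094 and 53.2 CPM. Gata1 had 8 UMIs in 8 cells. For each of these genes but Gata1, the level was higher in the 83 cells than in the 88, at 13999 CPM for Ifitm1, 759 for Grm6, 405 for Csrp3, 1001 for Rab44 and 1596 for Cdh1.

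Mast cell genes split the group. Of 12 genes that define mast cells, 9 were detected over the 88 cells, and all 12 were at 0 in the 83 cells. Mcpt2 (240 UMIs), Mcpt4 (103), Cma1 (88), Mcpt1 (50), and Tpsb2 (20) came from the single cell of 7149 UMIs, and Cma2 from that cell (29) and the cell of 9484 UMIs (2). Kit, the stem cell factor receptor of mast cells, had 16 UMIs, 8 in each of these cells. The list summed to 3064 CPM in the 88 cells, 0 in the 83 and 3.58 in the other leukocytes. Mast cell proteases and Mcpt8 were found together in 2 cells, and the limit of 5000 UMIs, set after seeing the data, removes both. The study labels a cell cluster found almost only in its Vehicle sample as mast cells. Whether that cluster holds the same cells was not tested. The name used here follows the genes of the rule. In the 83 cells, Mcpt8, a gene of the rule, was found in 78 cells and the 12 mast cell genes in 0. The 2 deep cells carried both kinds. For those 2 cells, and for the study's cluster, these counts do not decide between the names.

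Mcpt8 is one of a row of related protease genes, which gives a view of the difference along the genome. On mm10, chr14:55941451-56262260 from Cma1 to Gzmb holds 15 protein-coding genes, 9 of them detected in the 88 cells and 3 in the 83. In the 83 cells Mcpt8 had 1441 UMIs in 78 cells, the neutrophil protease Ctsg 13 UMIs in 6 cells and Gzmb, a cytotoxic granule protease, 11 UMIs in 8 cells. The 12 other genes of the stretch, among them the direct neighbour Mcpt4, had 0 UMIs in the 83 cells. In the cell of 7149 UMIs the same stretch gave 88 UMIs of Cma1, 240 of Mcpt2, 103 of Mcpt4 and 18 of Mcpt8.

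**Figure D2:**
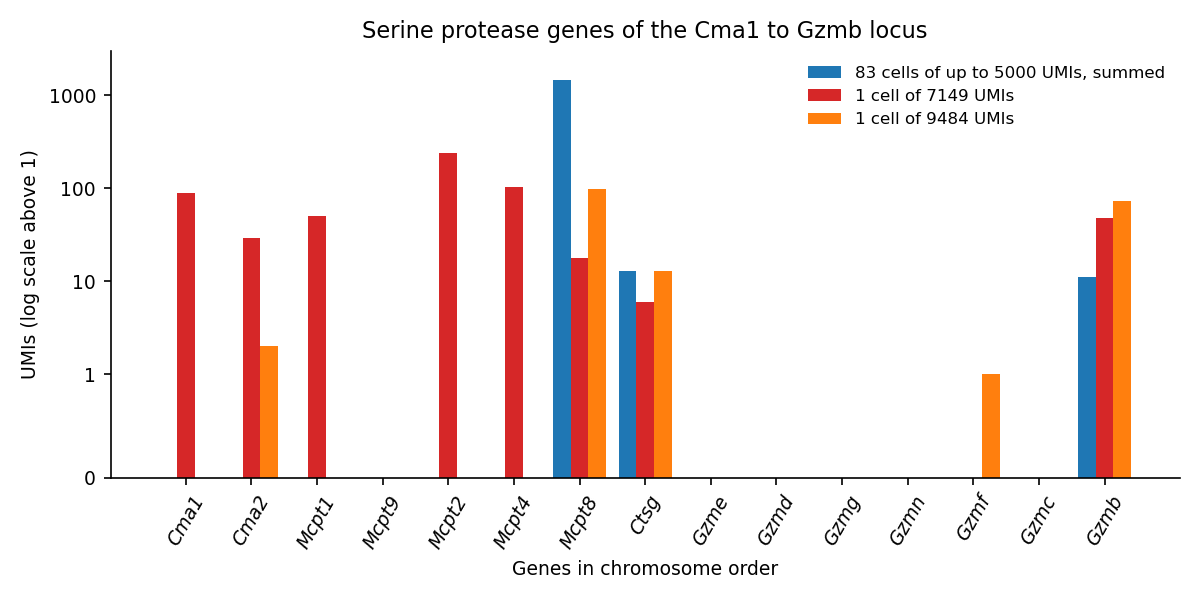
The bars give UMIs, on an axis that is linear to 1 and logarithmic above, for the 15 protease genes in chromosome order. The 83 cells summed show Mcpt8 (1441 UMIs), Ctsg (13) and Gzmb (11) alone, while the cell of 7149 UMIs also shows Cma1, Cma2, Mcpt1, Mcpt2 and Mcpt4, and the cell of 9484 UMIs shows Cma2, Mcpt8, Ctsg, Gzmf and Gzmb.

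The IgE receptor chains Fcer1a and Ms4a2 were part of the rule, so their presence describes the choice of cells, and the genes that signal below the receptor were mixed. Fcer1a, the chain that binds IgE, had 30 UMIs in 19 cells, of which 18 UMIs lay in 16 of the 83 cells, and Ms4a2 116 UMIs in 59 cells. Fcer1g, the gamma chain shared with other Fc receptors, was at 1443 CPM (2018 in the 83 cells) against 1874 in the other leukocytes. Of 15 tested signalling genes, 3 were at least 4-fold higher and 0 lower (5 and 1 in the 83 cells), and the median log2 ratio was 0.69. Over all tested genes 5.77% were higher and 7.27% lower (6.98% and 15.1% for the 83 cells). The 3 were the adaptors Lat (167 against 14.6 CPM), Lat2 (600 against 109) and Gab2 (150 against 24.8). The kinase Syk was at 250 and 153 CPM, and the kinase Lyn at 66.6 and 194.

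Among 14 tested Fc and paired receptors, 4 were at least 4-fold higher and 3 lower, in both the 88 and the 83 cells, and the lower count was near the 15.1% of all genes lower in the 83 cells (7.27% for the 88, with 5.77% and 6.98% higher). Lilr4b was at 2298 CPM against 166 and the inhibitory receptor Lilrb4a, a close relative, at 289 against 35.7, while the activating receptors Cd200r4 and Pilrb1 were at 183 against 7.22 and 111 against 6.05. Several of these receptors are near copies of one another, so reads could be split between them. The IgG receptors Fcgr1 (1 UMI), Fcgr2b (4 UMIs) and Fcgr4 (0 UMIs) were lower. Against the floor of 3 counts over the 88 cells, Fcgr4 was at least 4.37-fold lower. The floor is higher in the 83 cells (25.9 against 16.7 CPM). There the Fcgr4 call did not reach 4-fold against the floor and rests on the constant added to CPM.

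The cytokines showed a small set of high genes among many at 0. Of 25 genes, 13 were tested, 9 of these were at least 4-fold higher and 2 lower, and 13 of the 25 had 0 UMIs. The 83 cells gave the same counts. Of all tested genes 5.77% were higher and 7.27% lower (6.98% and 15.1% for the 83 cells). The median log2 ratio of those tested was 3.69 (3.93 in the 83 cells), or 4.49 (5.07) from plain CPM ratios with 3 counts in place of any 0.

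Il6, a cytokine of acute inflammation that was also given with this cell set as a marker, was detected in 71 of the 88 cells. It ran from 0 over 12.6 to 221 UMIs per 10000 in single cells, and 1 cell held 20 of the 219 UMIs. The level was 1216 CPM (1060 to 1388) in the 88 cells and 1768 in the 83, against 6.05 in the other leukocytes, 8.22 in the macrophage gate (leukocytes with at least 2 C1qa UMIs) and 2.89 in the stromal gate. The selected cells thus held 52.0% (47.1 to 56.9%) of all Il6 UMIs of the Vehicle library with 0.448% of its UMIs.

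Il4, the cytokine of type 2 responses, was sparse, with 27 UMIs in 21 of the 88 cells and at most 3 in a cell. These were 54.0% (39.3 to 68.2%) of the 50 Il4 UMIs of the library, and the level was 150 CPM (98.8 to 218) against 1.30. All 27 UMIs lay in the 83 cells. Il13, its close relative, had 16 UMIs in 14 cells at 88.8 CPM against 4.81, but the selected cells held only 17.2% of the library's Il13 UMIs. The macrophage gate held 59.1%, in 3 cells, and 35 of the library's 93 UMIs lay in 1 cell. Il4 and Il6 were found together in 19 cells, which is 90.5% of the cells with Il4 and 26.8% of those with Il6. Il4 and Il13 shared 5 cells, 23.8% of the first and 35.7% of the second. The cells with and without Il4 had nearly the same median depth, 1415 and 1356 UMIs.

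Osm and Lif, both cytokines of the interleukin 6 family, were high beside Il6. Osm was found in 65 cells at 1471 CPM against 35.3, and the selected cells held 26.8% of its UMIs and the macrophage gate 30.6%. Lif was found in 24 cells, 22 of which also had Il6, at 322 CPM against 3.97, and 70.7% of its UMIs lay in cells without Ptprc. Hgf, the hepatocyte growth factor, was found in 58 cells at 738 CPM against 6.50, with 33.0% of the library's UMIs in the selected cells and 41.7% in cells without Ptprc. Csf2, the growth factor GM-CSF, had 13 of the library's 28 UMIs in 8 selected cells, and Csf1, the macrophage growth factor, was at 433 CPM against 19.3 with only 3.37% of its UMIs in these cells. Tnf was at 294 CPM against 54.1, and 4.96% of its UMIs lay in the selected cells.

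Other cytokines were low or absent. Il1b had 3 UMIs (16.7 CPM against 208). Il5, Il9, Il10, Ifng, Il1a, Csf3, Areg and Tnfsf11 were each listed at 0, and all of these were also below 20 CPM in the other leukocytes. Over the 88 cells a count of 0 allows up to 16.7 CPM by the floor of 3 counts, or 20.5 CPM by the exact Poisson interval. Tgfb1 was at 511 against 250 CPM. Inhba, the activin A subunit, had 39 UMIs over the 88 cells but 3 in the 83, at 25.9 CPM against 79.5, and 92.0% of its UMIs lay in cells without Ptprc.

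The chemokines parted in direction. Of 16 tested, 4 were at least 4-fold higher and 11 lower, in the 88 and in the 83 cells, and 14 of the 21 listed were at 0. In the 83 cells, not all of the 11 lower calls reached 4-fold against the floor of 3 counts. The shares over all tested genes were 5.77% and 7.27% (6.98% and 15.1% for the 83 cells). The 4 were Ccl3, Ccl4, Ccl6 and Ccl9, chemokines of the CC family that lie together on chromosome 11. Ccl3 was found in 80 cells, from 0 over 49.2 to 296 UMIs per 10000, at 4080 CPM (6021 in the 83) against 35.4. Ccl4 was found in 70 cells at 3692 CPM (5564) against 75.8, and 66 of these cells also had Ccl3. Ccl6 was found in 86 cells and in every 1 of the 83 at 10709 CPM (16087) against 943, and Ccl9 in 82 cells at 3259 CPM (4882) against 652.

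The selected cells held 52.0% of the Ccl3 UMIs of the library (49.3 to 54.6%) and 31.5% of those of Ccl4, but only 9.85% of Ccl6 and 4.50% of Ccl9, of which the macrophage gate held 39.6% and 38.1%. Other chemokines were nearly missing from the selected cells. Ccl8 had 6 UMIs (33.3 against 3703 CPM) and Ccl2 1 UMI (5.55 against 310 CPM). Ccl24, Ccl12, Cxcl16 and Ccl7 had 0 UMIs and were at least 51.2, 21.0, 19.5 and 17.5-fold lower against the floor of 3 counts (33.0, 13.5, 12.5 and 11.3-fold in the 83 cells). The median log2 ratio of the list was -4.01 in both sets, and -2.18 (-1.55 in the 83 cells) from plain CPM ratios with 3 counts in place of any 0.

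**Figure D3:**
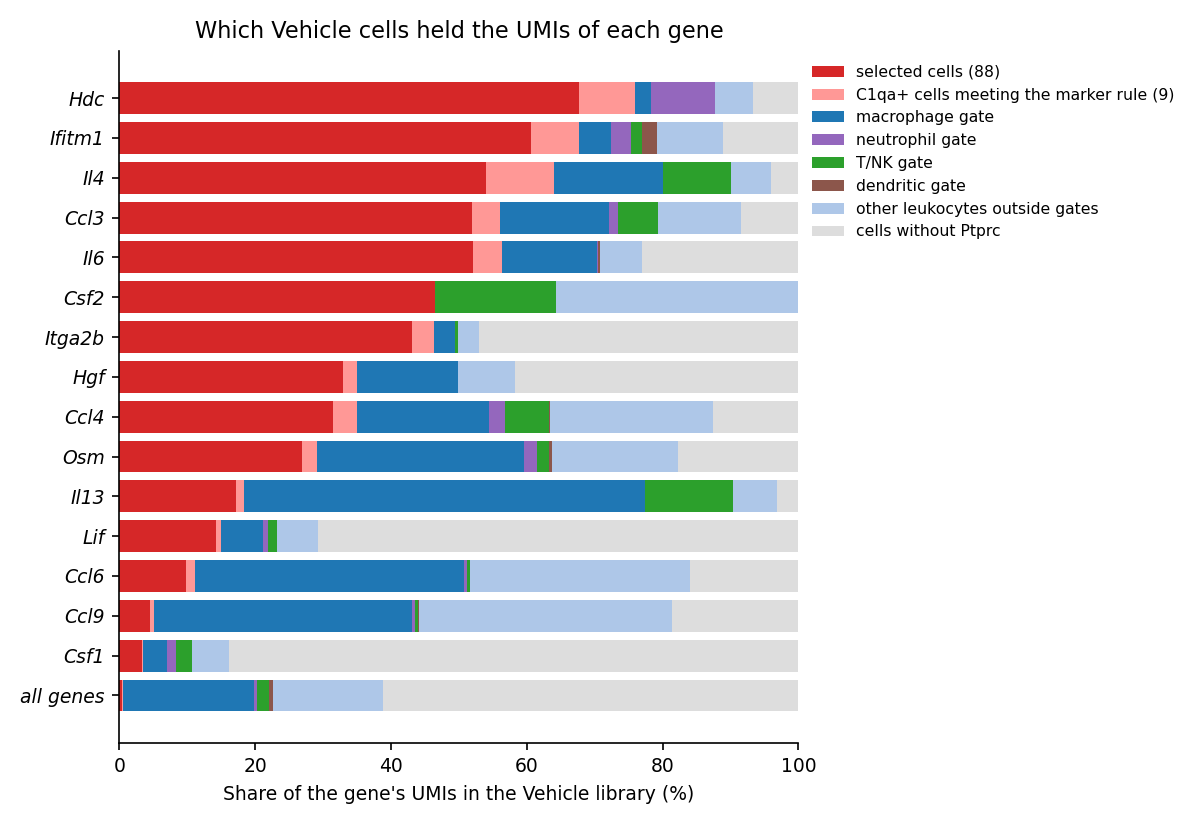
Each bar splits all UMIs of 1 gene in the Vehicle library among the cell groups, in percent, and the lowest bar does so for all genes together. The selected cells held 67.8% of the Hdc, 54.0% of the Il4, 52.0% of the Il6 and 52.0% of the Ccl3 UMIs with 0.448% of all UMIs, while Ccl6 and Ccl9 lay mostly in macrophage gate and other leukocytes.

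Receptors for growth factors of basophils were partly high. Of 22 tested cytokine receptors, 6 were at least 4-fold higher and 6 lower (7 and 7 in the 83 cells), beside 5.77% and 7.27% of all tested genes (6.98% and 15.1%). These counts use ratios with a constant added to CPM. Not all of the lower calls reached 4-fold against the floor of 3 counts. Csf2rb, the common beta chain for interleukin 3, interleukin 5 and GM-CSF, was at 1543 CPM against 183, and its copy Csf2rb2, which serves interleukin 3, at 999 against 65.1. The 2 are near copies, so the split of reads is uncertain. Il3ra, the alpha chain for interleukin 3, was at 128 against 34.5 CPM, which passed 4-fold only in the 83 cells. Both chains of the interleukin 18 receptor were high, Il18r1 at 244 against 9.36 CPM and Il18rap at 483 against 29.2. Il1rl1, the interleukin 33 receptor, was at 172 against 18.7 CPM in 19 cells, and Il7r at 228 against 42.2.

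The receptors that were lower included Csf1r, the receptor of the macrophage growth factor (3 UMIs, 16.7 against 557 CPM), and Il4ra (105 against 476 CPM). Il6ra (1 UMI, 5.55 against 114 CPM), Csf2ra (22.2 against 163 CPM) and the neutrophil receptor Csf3r (0 UMIs) were also called lower. The Csf3r call rests on the constant added to CPM. Against the floor of 3 counts, Csf3r was only at least 3.56-fold lower in the 88 cells. The floor is higher in the 83 cells (25.9 against 16.7 CPM), so the bound there is smaller still. Among receptors for the mediators above, Il4ra was at 627 CPM in the macrophage gate and 179 in the stromal gate, and Osmr at 83.5 CPM in the stromal gate and 22.2 in the selected cells, all from 1 cell.

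Adhesion and homing genes held several high members. Of 26 tested, 11 were at least 4-fold higher and 2 lower (12 and 3 in the 83 cells), with a median log2 ratio of 1.20. All tested genes had 5.77% higher and 7.27% lower (6.98% and 15.1% for the 83 cells), and the lower members were near those shares. The integrin chains Itga1 and Itga2, which bind collagen, were at 955 CPM, 79.4-fold above the others, and at 161 against 2.28 CPM. Itga2b, the fibrinogen receptor chain best known from platelets, was found in 59 cells at 611 CPM against 1.63, and its partner Itgb3 was at 150 against 14.2. Of the other platelet genes Pf4, Ppbp, Gp9, Gp1bb and Treml1 had 0 UMIs in the 88 cells. Itgb7, which pairs with alpha 4 for gut homing, was at 577 against 48.0 CPM, while Itga4 had 15 UMIs over the 88 cells and 0 in the 83.

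Cxcr2, the chemokine receptor of neutrophils, was detected in 59 cells at 594 CPM against 15.0, and the neutrophil gate, which was partly chosen by it, was at 958. The selected cells and the neutrophil gate held 25.1% and 37.2% of its UMIs. None of the defining neutrophil genes S100a8, Retnlg, Csf3r, Ly6g, Mmp8, Mmp9 or Ltf had a UMI in the 88 cells, and S100a9 had 1. The 10 neutrophil genes summed to 605 CPM, of which Cxcr2 was 594. Ccr1 was at 261 against 144 CPM, Ccr2 at 294 against 665, and Ccr3, an eotaxin receptor, had 6 UMIs in 4 cells. The eosinophil genes Siglecf, Prg2, Prg3, Il5ra, Ear1 and Ear6 had 0 UMIs, and Epx had 1.

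Of 9 tested lipid mediator genes, 1 was at least 4-fold higher and 0 lower (2 and 2 in the 83 cells), with a median log2 ratio of -0.15 (-0.69). Over all tested genes the shares were 5.77% and 7.27% (6.98% and 15.1% for the 83 cells). Alox5, the 5-lipoxygenase that starts leukotriene synthesis, was at 427 CPM in 47 cells against 34.5, and its helper Alox5ap at 1749 against 577, which passed 4-fold only in the 83 cells (2501 CPM). The later enzymes Ltc4s (2 UMIs) and Lta4h (5 UMIs) were near the floor. Ptgs2, an enzyme of prostaglandin synthesis, had 17 UMIs, of which 15 came from 1 cell.

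Cyp11a1, the enzyme that makes pregnenolone from cholesterol, was present without most of its pathway. Star, Hsd3b1, Hsd3b6, Cyp11b1, Cyp17a1 and Cyp21a1 had 0 UMIs in the 88 cells, Fdx1, the electron donor of Cyp11a1, had 10 UMIs over the 88 cells and 1 in the 83, and Fdxr had 3. Tspo, a protein of the outer mitochondrial membrane, was at 677 CPM against 954. A count of 0 over the 88 cells allows up to 16.7 CPM for these genes by the floor of 3 counts, or 20.5 CPM by the exact Poisson interval.

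Of 16 tested secretion genes, 4 were at least 4-fold higher, namely Rab37 (83.3 against 3.25 CPM), Rab27b (77.7 against 4.68), Rab27a (117 against 11.6) and Unc13d (117 against 15.1), all of which act when granules dock and fuse. The 1 lower gene was the lysosomal Lamp1, at 117 against 733 CPM. In the 83 cells 5 were higher and 1 lower, and the shares over all tested genes were 5.77% and 7.27% (6.98% and 15.1% for the 83 cells). Srgn, the core protein of granule proteoglycans, was at 2720 against 1033 CPM.

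Transcription factors and immediate early genes moved in a few members. Of 23 tested factors, 5 were at least 4-fold higher and 1 lower (5 and 2 of 22 in the 83 cells), where all tested genes had 5.77% and 7.27% (6.98% and 15.1%), with Runx1 at 1210 against 229 CPM, Tal1, a partner of GATA factors, at 167 against 5.01, and Nfil3 at 355 against 59.2. Lmo4 was the exception among them, since 39 of its 92 UMIs came from 1 cell and it was under 4-fold in the 83 cells. Mitf, the mast cell and melanocyte factor, had 0 UMIs and was the 1 factor called lower in the 88 cells. This call rests on the 5 CPM added, since against the floor of 3 counts it was only at least 2.70-fold lower. Of 18 tested immediate early genes, 5 were higher and 2 lower (7 and 2 in the 83 cells). Ier3 was at 2792 against 536 CPM and Egr1 at 505 against 48.4, while Atf3 (1 UMI) and Egr2 (0 UMIs) were lower and Fos was at 255 against 368. Immediate early genes can respond to enzymatic digestion of tissue, and its part in these levels was not tested.

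Among BMP, activin and retinoid genes, 14 were tested, and 2 were at least 4-fold higher and 1 lower (2 and 2 in the 83 cells), single genes beside the 5.77% and 7.27% (6.98% and 15.1%) of all tested genes. Id1, a target of BMP signalling, was at 450 CPM (681 in the 83 cells) in 44 cells against 21.1 in the other leukocytes and 102 in the stromal gate, whereas its relative Id3 had 3 UMIs (16.7 against 98.1 CPM). Bmp4 had 9 UMIs in 8 of the 83 cells. The retinoic acid receptors Rara and Rarg were at 167 against 81.6 CPM and 50.0 against 29.4.

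Glycolysis genes held no call, and hypoxia genes held few, near the shares over all tested genes (5.77% higher and 7.27% lower, or 6.98% and 15.1% for the 83 cells). Of 16 glycolysis genes tested, 0 were past 4-fold in either direction, in the 88 or the 83 cells, and their median log2 ratio was 0.12 (-0.06). Of 17 hypoxia genes, 2 were higher and 0 lower, Ero1l (450 against 98.2 CPM) and Ddit4 (217 against 42.2), and in the 83 cells, where 15 were tested, only Ero1l was higher and Ak4 passed as lower with 0 UMIs against 25.2 CPM, which lies under the floor of 3 counts, while the median turned from 0.21 to -0.91. Of 8 tested cell cycle genes, 0 were higher and 2 lower (0 and 5 in the 83 cells), with a median log2 ratio of -1.51 (-2.51). From plain CPM ratios with 3 counts in place of any 0, the median was -1.68 (-1.23). In the 83 cells 9 of the 14 listed genes were at 0, and not all of the 5 lower calls held against this floor. Mki67 had 2 UMIs and Top2a 8 in all.

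Outside the lists, the genes with the largest ratio in the selected cells were Adgrg3, an adhesion receptor of granulocytes (355 against 1.04 CPM), Lama5, a laminin chain of basement membranes (355 against 1.04), Asb2, a ubiquitin ligase subunit (278 against 2.02), Muc20 (205 against 0.650), Ctsg (178 against 0.0650), Klf5 (205 against 1.24), Cyp4f18 (761 against 21.3), Btnl9 (139 against 0.260), Mest, the thrombin receptor F2r (283 against 5.66), the potassium channel Kcnj2 (200 against 2.73) and Nt5e, the ectoenzyme that makes adenosine (511 against 14.8). Mest is set aside, since 76 of its 77 UMIs came from 1 cell and its log2 ratio fell from 4.76 to -0.22 in the 83 cells. Of the 32 Ctsg UMIs, 13 lay in the cell of 9484 UMIs, 6 in the cell of 7149 UMIs and 13 in 6 of the 83 cells. Among the lowest were Wfdc17 (1 UMI), Fcrls (at least 26.1-fold), Lpl, the lipoprotein lipase (at least 24.5-fold), Clec4a1 (at least 20.2-fold), Clec4a2 (at least 16.4-fold), F13a1 (1 UMI) and Pid1 (at least 15.3-fold).

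Macrophage RNA was low in the selected cells beyond C1qa, which the rule fixed at 0. Of 12 macrophage genes 11 were at least 4-fold lower, where 7.27% of all tested genes were (15.1% for the 83 cells, also with 11 genes), with Lyz2 at 88.8 against 7419 CPM and Apoe at 94.4 against 5665, and the list summed to 461 against 20495 CPM. Adgre1 (F4/80) was the exception, at 172 against 372 CPM. Most collagen and cartilage UMIs came from the deep cells. The 8 mesenchymal genes summed to 12330 CPM in the 88 cells and 1026 in the 83, against 9130 in the other leukocytes, and the 8 chondrocyte genes to 6168, 77.6 and 514. Of 12 T and NK genes, Gzmb was the most abundant at 727 CPM (94.9 in the 83 cells) and Klrb1c, Ncr1, Gzma and Klrd1 were at 0. The T cell receptor chains Cd3e, Cd3d, Cd3g, Trac and Trbc2 came from 1 cell.

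**Figure D4:**
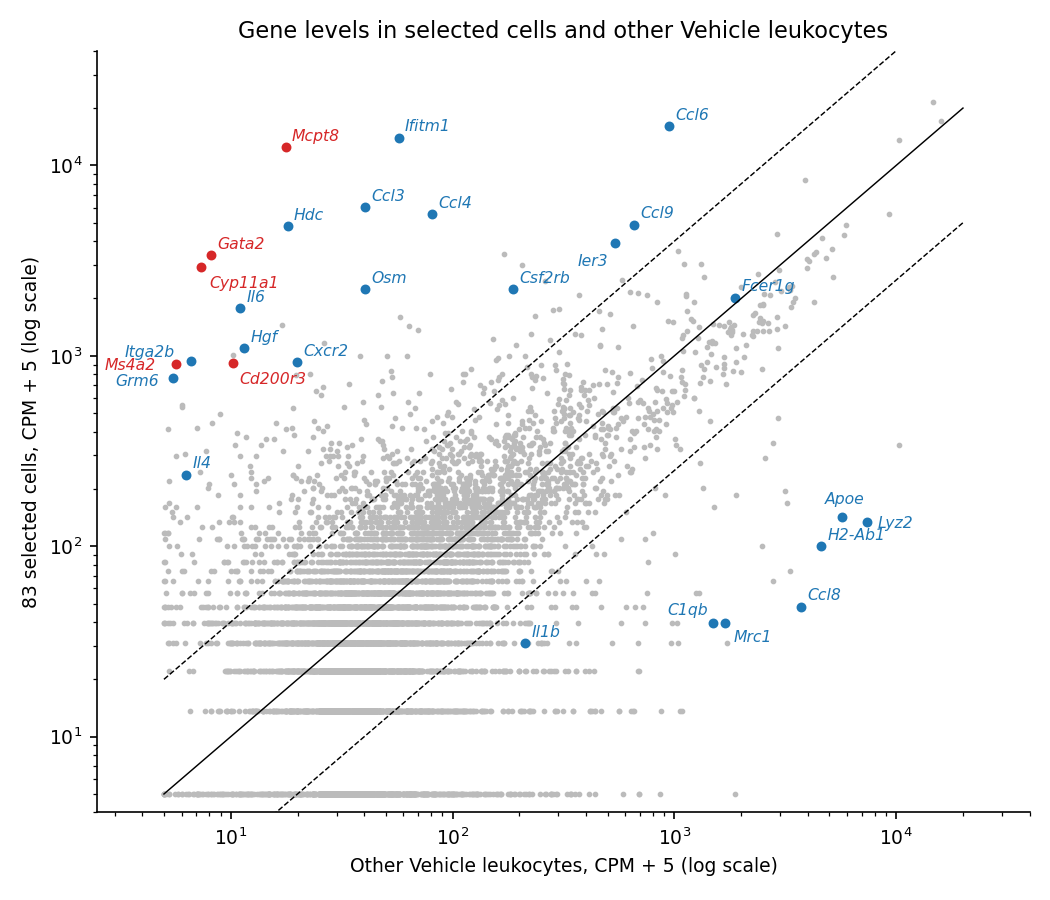
Each point is a gene, with its CPM plus 5 in the other Vehicle leukocytes against the 83 selected cells, both on log axes, and dashed lines at 4-fold. Genes of the rule are red and other named genes blue. Hdc (4804 against 13.1 CPM), Ifitm1, Il6 and Ccl3 lie near the rule genes at the upper left, while Lyz2, Apoe and Ccl8 lie at the lower right.

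Since the selected cells were shallower than most others, shares of cells with a UMI were also computed at 600 UMIs per cell, which left out 4 of the 88 cells and 25 of the 3029. At this depth Il6 was expected in 54.6% of selected cells (43.4 to 65.5%) and 0.327% of other leukocytes, where the unthinned shares were 80.7% and 2.24%. Hdc was expected in 87.2% and 1.16%, Ccl3 in 82.4% and 2.03%, Osm in 57.0% and 2.36%, and Il4 in 11.5% and 0.0753%. The stromal gate, whose cells should lack Hdc and Il4, had 0.0255% for Hdc and 0% for Il4 (0.956% and 0% unthinned), at a median of 16902 UMIs per cell against 1372.5 in the selected cells. Stromal cells can make Il6 themselves, and their share was 0.172% (4.34% unthinned). Fcer1g was at 67.1% (56.0 to 76.9%) in the selected cells, 63.4% in the other leukocytes and 72.1% in the macrophage gate.

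**Figure D5:**
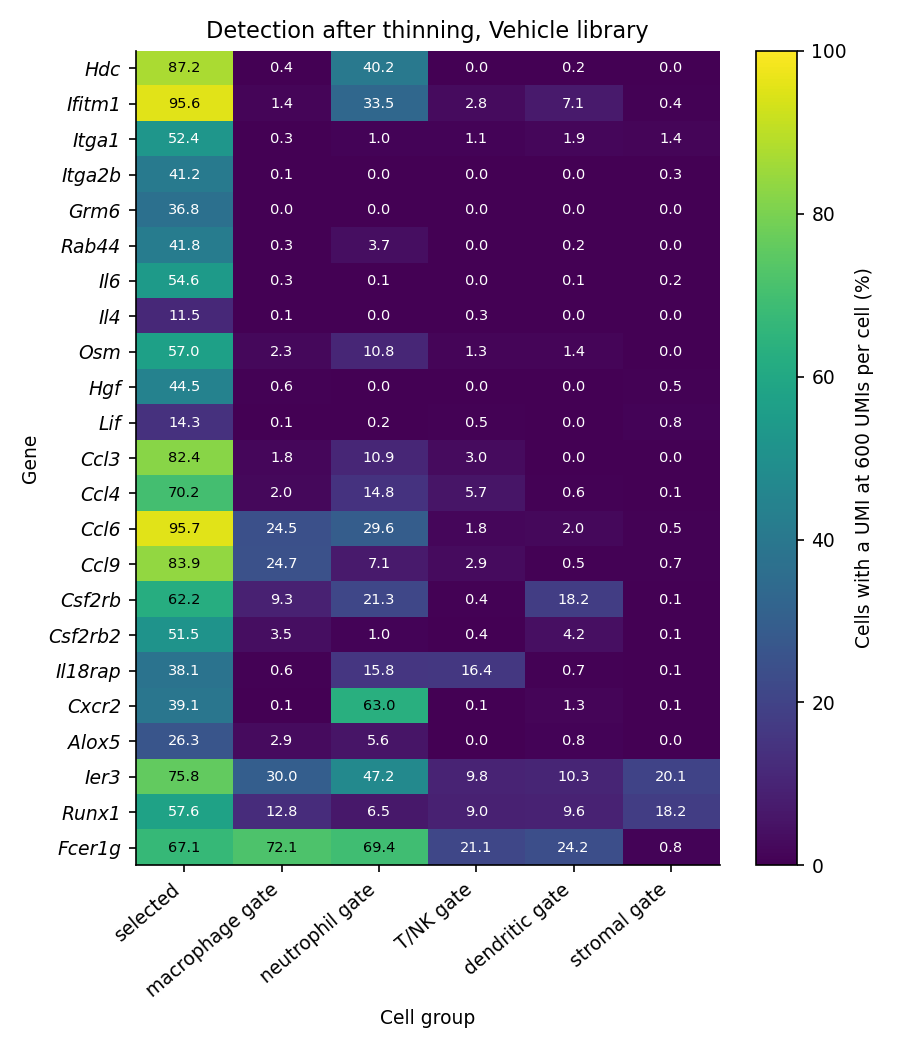
The grid gives the percent of cells with at least 1 UMI of each gene when every cell is thinned to 600 UMIs, for the selected cells and 5 gates of the Vehicle library. Hdc stood at 87.2% in the selected cells and 40.2% in the neutrophil gate, and Cxcr2 at 39.1% and 63.0%. Of the 68 neutrophil gate cells, 55 had at least 600 UMIs and entered these shares, and the gate was partly chosen by Cxcr2. Il6 stood at 54.6% in the selected cells and at 0.342% or less in each of the 5 gates.

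Among the 83 cells, Mcpt8 ran from 0 over a median of 82.3 to 609 UMIs per 10000. When the 83 were ranked by that level, the upper 41 had 20986 CPM of Mcpt8 and the lower 42 had 3752, at median depths of 1334 and 1353.5 UMIs. Gata2 (3187 and 3561 CPM), Cyp11a1 (2895 and 2971) and Ms4a2 (908 and 903) were nearly level between them, and so was Il4 (223 and 243). Il6 was at 2398 CPM (2018 to 2830) in the upper and 1129 (871 to 1439) in the lower cells, and Ccl4 at 6887 and 4221. A few cells weighed on these levels, since 3 upper cells held 48 of the 140 Il6 UMIs and 3 held 163 of the 402 Ccl4 UMIs. Without the 3 cells of each side with most UMIs of the gene, a choice made after seeing the data, Il6 was at 1725 (1390 to 2115) and 887 (654 to 1176) CPM, and Ccl4 at 4551 and 3086. Some other genes were picked after their values were seen. Slpi, a protease inhibitor, was at 2107 and 730 CPM and Cish, a target of cytokine signalling through STAT5, at 942 and 313, while Rgs2, a regulator of G protein signals, was at 565 and 1425 and ribosomal protein genes summed to 85419 and 106666 CPM. The split uses the values of the cells themselves and is a description.

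The other libraries held few UMIs of the marker genes. In Matrigel-only the library listed 1 UMI of Mcpt8, 10 of Gata2, 0 of Ms4a2 and 37 of Hdc, and in Palo 10, 4, 0 and 81, against 1801, 515, 130 and 859 in Vehicle. The Matrigel-only cell that met the rule had 773 UMIs, with 1 of Mcpt8, 5 of Gata2, 3 of Cyp11a1, 1 of Hdc and 15 of Ifitm1. In Palo 9 of the 10 Mcpt8 UMIs lay in 1 cell, which did not meet the rule. Il4 had 50 UMIs in Vehicle, 5 in Matrigel-only and 0 in Palo, and Il6 421, 148 and 133. Several of the mediators did not follow this order. Ccl3 had 1414 UMIs in Vehicle, 730 in Matrigel-only and 2035 in Palo, Ccl4 had 2114, 873 and 2512, Ccl6 19578, 59342 and 63080, and Csf2 28, 38 and 77. Cd200r3 did not follow it either, with 195 UMIs in Vehicle, 140 in Matrigel-only and 330 in Palo, and in Vehicle 32.8% of its UMIs lay in other leukocytes outside the gates. At least 2 of the listed mast cell genes other than Kit were detected in 3 Palo cells, 1 Vehicle cell and 1 Matrigel-only cell. The cells held 117 (Palo), 534 (Vehicle) and 2 (Matrigel-only) UMIs of these genes, so the Matrigel-only cell was near the floor. The libraries shared 19, 21 and 11 cell barcodes between Matrigel-only and Vehicle, Matrigel-only and Palo, and Vehicle and Palo, and 1 of the 88 cells had such a barcode.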

How the data were processed

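The authors deposited UMI counts per gene and cell for 3 droplet libraries, 1 per group, as filtered barcode matrices, and the submitters' processing notes name Cell Ranger 3.0.2, Seurat 3 and mm10. Libraries held 44252421 (Matrigel-only), 46317250 (Vehicle) and 46901673 (Palo) UMIs in 9249, 6065 and 7905 barcodes.

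Counts were summed over cells and scaled to 1000000 UMIs (CPM) (Python 3.11.15, numpy 2.4.6, scipy 1.17.1, pandas 2.3.3, matplotlib 3.10.9). Ratios used CPM plus 5 for genes of at least 20 CPM in either group, and a gene was called at 4-fold. For a gene without UMIs, a lower call can rest on the CPM added. Such a call need not reach 4-fold against the floor of 3 counts. Intervals are exact Poisson for levels and exact binomial for shares, at 95%. With 1 library per group no p-value was computed. Detection was thinned to 600 UMIs per cell by the hypergeometric formula.

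Gates used C1qa (at least 2 UMIs) or at least 2 genes of a cell type without C1qa, with Ptprc. The stromal gate needed at least 2 UMIs of Col1a1 and of Dcn or Sparc, without Ptprc or C1qa. No doublet caller was run, and cells above 5000 UMIs or in another gate were left out as alternatives instead. Symbols repeated in the files (35) were summed for cell selection, gates, single gene levels by gate and the split of UMIs among cell groups. In the ratios and 4-fold calls each row stood alone, and list values used the first row of a symbol. Promoters of 19 of 22 genes looked up matched RefSeq, and gene positions are GENCODE on mm10.

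Genes named were those of the lists and, outside them, the 12 largest ratios among genes of at least 100 CPM in the selected cells and the 8 smallest among genes of at least 200 CPM in the others. An item that these rules name is not reported here. Members and lists were chosen with earlier results of these data known. The scripts were tested on simulated data.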

Additional observations from a re-analysis of the deposited data

Results flagged for a closer look

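In the Vehicle library, 3 cells outside the limits on gene number and mitochondrial UMIs also met the marker rule, 1 above the gene limit and 2 above the mitochondrial limit, and they carried 11 UMIs of Mcpt8. They drew attention because they lie outside the cells compared, and 0 such cells were found in each of the Matrigel-only and Palo libraries.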

How the results depend on the processing

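No paired analysis was possible because each group had 1 library. The number of Vehicle cells selected was 88, and 83 to 100 under the alternatives. Genes at least 4-fold higher numbered 442 and genes at least 4-fold lower 557. The lower count moved to 895 when ratios were taken from the mean over cells and to 1114 without cells above 5000 UMIs, an alternative chosen after seeing the data. Without those cells the higher calls numbered 516, which are 31.7% of all calls where they were 44.2%, the log2 ratio of Col2a1 turned from 4.35 to -3.71, and the median of the 7 chondrocyte genes tested in the 88 cells from 2.68 to -2.43 (-2.59 over the 5 tested in the 83). Without the condition on C1qa the selected cells held 56.1% of the Ccl3 and 75.9% of the Hdc UMIs. Genes with few UMIs, such as Il4 with 27, limit precision. A gene at 0 in the 88 cells could have reached 16.7 CPM by the floor of 3 counts, or 20.5 CPM by the exact Poisson interval.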
